A study of Mus musculus with 6 samples.

Results

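The 8 genes described here encode the kainate receptor subunits Grik1, Grik2, Grik3, Grik4 and Grik5, the delta receptor subunit Grid1, and Neto1 and Neto2, the auxiliary subunits of kainate receptors. They were chosen by gene name from the 21958 protein-coding genes of the deposited table, and all 8 were among the 12255 genes that passed the expression filter and were tested. RNA-seq was performed on synaptoneurosomes, a fraction of brain tissue enriched in synapses, from hippocampi and neighbouring cortex of male FVB mice aged 6 to 8 weeks. The first group, NMDA polyribosomes, held polyribosomal RNA, from light and heavy fractions combined, of synaptoneurosomes that were exposed to NMDA (50 µM) and glutamate (10 µM) for 30 s and then kept with the NMDA receptor antagonist APV (120 µM) for 20 min. The second group, unstim. Total, held total RNA of unstimulated synaptoneurosomes that had been kept on ice with cycloheximide. Each group had 3 libraries. Stimulation, incubation and fraction changed together, so their effects cannot be told apart, and tissue of several mice was pooled for a preparation. Nothing in the labels says that the replicates came from separate animals, so p-values measure the spread between these libraries.

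Kainate receptors are tetrameric glutamate-gated channels that act on both sides of the synapse, and they are best known from the mossy fibre synapses of the hippocampus. Grik1, Grik2 and Grik3 encode subunits that can form channels by themselves, while the high-affinity subunits encoded by Grik4 and Grik5 need a partner from the first set. Neto1 and Neto2 are transmembrane proteins that bind these channels and slow their closing. Delta receptors are related in sequence to the other glutamate receptors but act mainly as adhesion proteins that are joined through cerebellins to presynaptic neurexins.

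Library totals were 5294482 to 7361580 counts for NMDA polyribosomes and 1044955 to 3738022 for unstim. Total, and the shallowest library was unstim. Total replicate 3. The 6 neuronal markers (Rbfox3, Syt1, Syn1, Map2, Snap25 and Nefl) were all detected in every library, and their summed levels per library, in counts scaled by TMM to a common library size (CPM), were 5311 to 6076 for polyribosomes and 5407 to 6199 for total RNA. Glial RNA was present as well, and the summed level of 6 astrocyte markers was 37053 to 39171 CPM on polyribosomes and 30437 to 34150 in total RNA. Most of this sum was Slc1a2, at 30389 to 33562 CPM on polyribosomes and 26317 to 29862 in total RNA. Sums of different marker lists therefore do not compare the amounts of RNA between cell types. None of the markers of any list passed the threshold, but all 6 astrocyte, 5 oligodendrocyte and 5 microglia markers had a positive log2 fold change. The same held for all 4 oligodendrocyte precursor and all 4 endothelial markers, for 4 of 6 inhibitory neuron markers and for 3 of the 6 neuronal markers. It also held for 2 of 4 excitatory neuron markers (median log2 fold change -0.18) and for 2 of 3 hippocampal field markers (median 0.49). The part of glial RNA in the results below was not tested, and fewer cells or terminals of a type cannot be told apart from less RNA in each.

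Grik5 was the most abundant of the 8 mRNAs. To compare levels between genes, TMM-scaled CPM were divided by the annotated exonic length in kb. On this scale Grik5 reached 109 ± 12 CPM per kb in NMDA polyribosomes and 85.8 ± 22.1 in unstim. Total (SD, n = 3), and its mean over the 6 libraries lay at percentile 96.5 of the genes tested. In every library it exceeded each of the other 7 genes. Grik3, Grid1, Neto1, Grik2 and Neto2 followed with mean levels from 10.5 to 24.0 CPM per kb on polyribosomes and from 16.3 to 21.5 in total RNA. Among these 5, neighbours in the order of levels had overlapping ranges in both groups. On polyribosomes the lowest library of Grik3 (19.8) and of Grid1 (19.4 CPM per kb) was above the highest of Grik2 (14.3) and of Neto2 (13.8). Grik4 had 6.08 ± 0.02 CPM per kb on polyribosomes and 6.08 ± 0.31 in total RNA. Grik1 was the least abundant of the 8 in each of the 6 libraries, with means of 4.24 and 4.62 CPM per kb and raw counts of 12 to 115 per library. On polyribosomes the ranges of Neto2 and Grik4 overlapped, because Neto2 reached only 4.61 CPM per kb in replicate 3.

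The subunit genes are related in sequence, which matters both for the assignment of reads and for their base composition. The coding sequences of Grik1, Grik2 and Grik3 shared 69.2% to 72.0% of aligned bases with each other, and those of Grik4 and Grik5 shared 70.6%, while identities between these sets were 51.7% to 56.4%. No stretch of 100 bases, the read length, was identical between the annotated protein-coding transcripts of any 2 of the 8 genes, and the longest identical run of a pair had 11 to 61 bases. The most similar 60-base window in the aligned coding sequences of the 5 kainate subunits (Gencode vM21) is given here, 5′ to 3′ on the coding strand, with the 41 bases that all 5 genes share in capitals. It shows where the genes differ within a conserved stretch, and each window lies in a single coding exon of the GRCm38 build.
Grik1: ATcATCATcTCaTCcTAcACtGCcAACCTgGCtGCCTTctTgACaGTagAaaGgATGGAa
Grik2: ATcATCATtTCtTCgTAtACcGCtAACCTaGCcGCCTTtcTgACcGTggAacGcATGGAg
Grik3: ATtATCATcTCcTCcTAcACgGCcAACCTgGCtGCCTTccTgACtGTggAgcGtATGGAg
Grik4: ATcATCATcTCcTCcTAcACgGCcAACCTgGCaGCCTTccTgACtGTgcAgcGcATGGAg
Grik5: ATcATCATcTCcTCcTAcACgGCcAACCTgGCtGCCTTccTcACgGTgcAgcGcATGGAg

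Of the 19 bases that varied in this window, 16 were at the third codon position. The window lies at chr16:87935988-87936047 (minus strand) in Grik1, chr10:49240669-49240728 (minus strand) in Grik2, chr4:125694030-125694089 (plus strand) in Grik3, chr9:42543848-42543907 (minus strand) in Grik4 and chr7:25015898-25015957 (minus strand) in Grik5. The stretch encodes part of the channel-lining transmembrane region that ionotropic glutamate receptors have in common. Its GC content differed in steps between the genes, from 46.7% in Grik1 over 50.0% in Grik2, 55.0% in Grik3 and 58.3% in Grik4 to 60.0% in Grik5. Over the longest annotated transcripts, GC content was 36.5% for Neto2, 37.9% for Grik2, 39.6% for Neto1, 47.9% for Grik1, 49.9% for Grid1, 52.2% for Grik4, 54.2% for Grik3 and 62.3% for Grik5. The 8 genes thus spanned the lowest to the highest GC quintile of the genes tested, a property that the choice of genes did not use.

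The main comparison asked whether the mRNAs were more or less abundant, relative to other mRNAs, on polyribosomes of stimulated synaptoneurosomes than in total RNA. Counts were scaled to a common library size, so higher and lower here do not give absolute amounts of an mRNA on polyribosomes. None of the 8 genes passed an adjusted p of 0.01 in edgeR's unpaired quasi-likelihood test, in which 0.71% of all genes tested were called higher and 2.36% lower. At an unadjusted p under 0.05, 1 of the 8 was lower and none was higher, against 17.1% of all genes lower and 15.4% higher. DESeq2, which called 3.19% of all genes higher and 3.77% lower, also called none of the 8 and placed 1 of them, Grik2, under an unadjusted 0.05. The 8 log2 fold changes ran from -0.67 to 0.35 with a median of -0.09, against a median of 0.00 over all genes tested. The median of the 8 was -0.20 with scaling by total counts only, where that of all genes was -0.11.

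**Figure D1:**
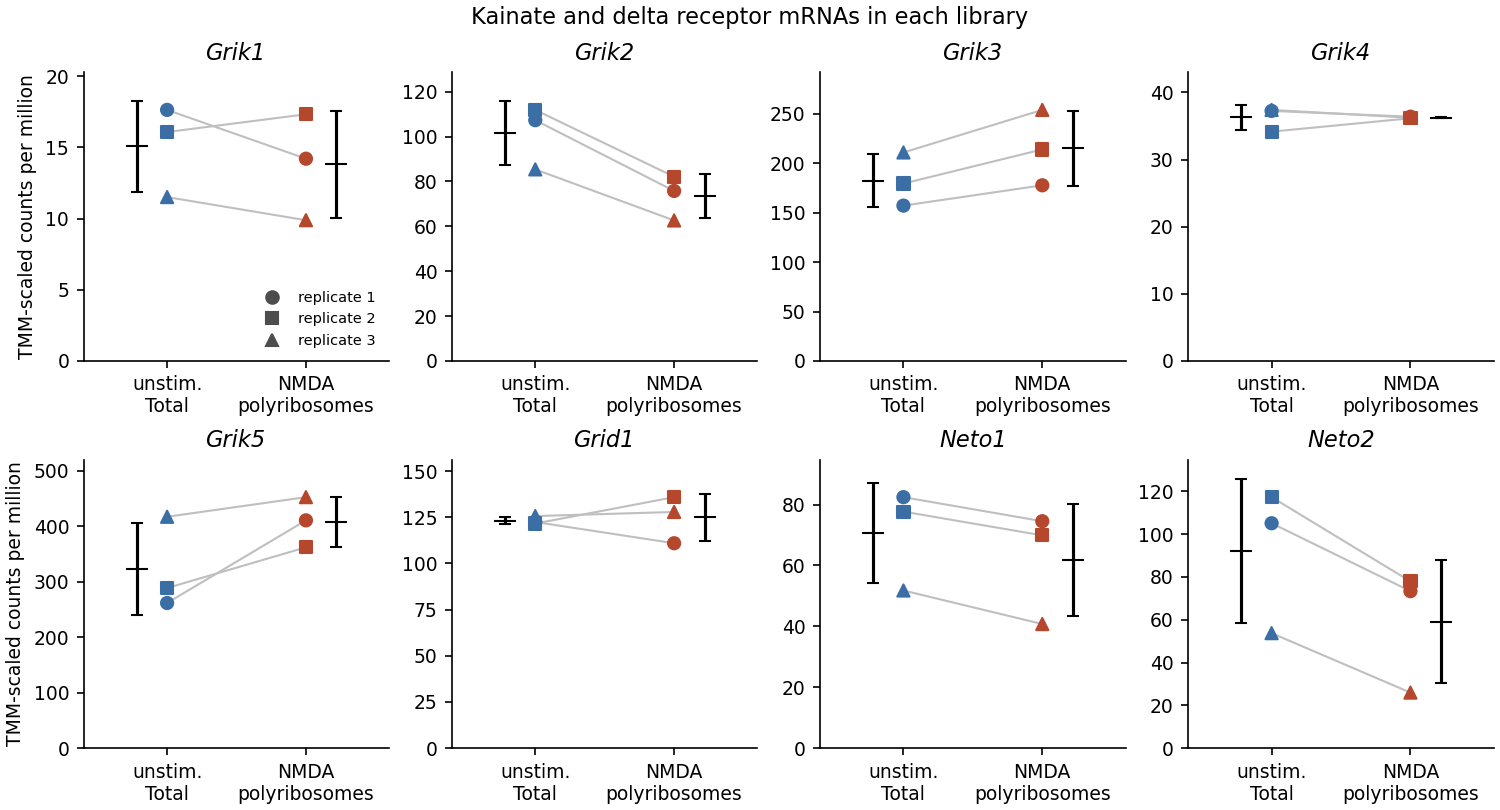
TMM-scaled CPM of the 8 genes in each library, from 0 upwards. Points are libraries with a shape for each replicate number, grey lines join libraries of the same number, and black bars give the mean ± SD of 3 libraries. Grik2 is the only gene whose groups do not overlap. Neto2, Neto1, Grik1 and also Grik2 are lowest in replicate 3 of both groups.

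Among the subunits that can form channels by themselves, Grik2 was the gene with the most even difference. It lies on chromosome 10 from 49099460 to 49788766. Its CPM were 75.8, 82.1 and 62.6 in NMDA polyribosomes replicates 1 to 3 and 107, 112 and 85.3 in unstim. Total. The polyribosome libraries were all below the total RNA libraries, which made Grik2 the only gene of the 8 without overlap between groups, against 18.9% of all genes tested that were likewise lower without overlap and 36.2% in either direction. The log2 fold change was -0.48 (standard error 0.17, 95% interval from -0.85 to -0.11, edgeR adjusted p = 0.0707), and it was negative in 3 of 3 pairs, at -0.50, -0.44 and -0.44. With the replicate number as a block, which treats libraries of the same preparation as a pair, it was -0.47 and passed the threshold (edgeR adjusted p = 0.00161), a call that ended when an offset for GC and length was added (0.10, edgeR adjusted p = 0.585).

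Grik3 lies on chromosome 4 from 125490700 to 125714173. Its CPM were 178, 214 and 254 on polyribosomes and 157, 180 and 211 in total RNA. In both groups replicate 3 was the highest, and the groups overlapped. The log2 fold change was 0.25 (standard error 0.18, 95% interval from -0.15 to 0.64, edgeR adjusted p = 0.379), positive in 3 of 3 pairs. Grik1, on chromosome 16 from 87896196 to 88056176, ranged from 9.88 to 17.3 CPM in the polyribosome libraries and from 11.5 to 17.6 CPM in those of total RNA. The groups overlapped, at a log2 fold change of -0.18 (standard error 0.24, edgeR adjusted p = 0.632). Its interval from -0.69 to 0.32 was the widest of the 8 after that of Neto2, and differences within it were not detectable at these counts.

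Of the high-affinity subunits, Grik5 lies on chromosome 7 from 25009853 to 25072369. Its CPM were 411, 362 and 453 on polyribosomes and 262, 289 and 417 in total RNA. Unstim. Total replicate 3 stood among the polyribosome libraries, so the groups overlapped. The log2 fold change was 0.35 (standard error 0.20, 95% interval from -0.07 to 0.77, edgeR adjusted p = 0.232). It was positive in 3 of 3 pairs but uneven, at 0.65, 0.33 and 0.12, and with the replicate block it stayed short of the threshold (0.37, edgeR adjusted p = 0.0137). Without unstim. Total replicate 3 it was 0.57 (edgeR adjusted p = 0.0407). Grik4, on chromosome 9 from 42518135 to 42944493, was nearly constant. Its polyribosome libraries held 36.2 to 36.4 CPM and those of total RNA 34.2 to 37.4 CPM, with a log2 fold change of 0.00 (standard error 0.17) and an interval from -0.35 to 0.36.

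The delta receptor gene Grid1, on chromosome 14 from 34819825 to 35583379, had a fold change as small as that of Grik4. The polyribosome libraries held 111 to 136 CPM, on either side of the 122 to 126 CPM of total RNA. Grid1 thus had a log2 fold change of 0.021 (standard error 0.16, 95% interval from -0.32 to 0.36, edgeR adjusted p = 0.947). With scaling by total counts only, the fold changes of Grik4 and Grid1 were -0.11 and -0.087. The unpaired intervals of both genes reach up to 0.36, and down to -0.35 for Grik4 and -0.32 for Grid1.

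The auxiliary subunit gene Neto2, on chromosome 8 from 85636588 to 85690973, had the most negative fold change of the 8 genes. Its CPM were 73.3, 77.9 and 25.9 on polyribosomes and 105, 117 and 53.7 in total RNA. Replicate 3 was the lowest library of its group on both sides, and this spread made the groups overlap. The log2 fold change was -0.67 (standard error 0.33, 95% interval from -1.37 to 0.03, edgeR adjusted p = 0.171), with -0.52, -0.59 and -1.04 in the 3 pairs. With the replicate block the fold change was -0.65 and passed the threshold (edgeR adjusted p = 2.8e-05), and the offset for GC and length ended this call too (-0.025, edgeR adjusted p = 0.908). Without NMDA polyribosomes replicate 3 it was -0.34. In libraries 1 and 2 of each group alone it was -0.56 and passed as well (edgeR adjusted p = 0.0061), in a fit that called 5.25% of all genes lower, a choice made after the values were seen.

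Neto1 lies on chromosome 18 from 86394952 to 86501897. The 3 polyribosome libraries gave 74.5, 69.9 and 40.8 CPM, and the libraries of total RNA 82.4, 77.7 and 51.8 CPM, with replicate 3 lowest in both groups and an overlap between groups. Its log2 fold change was -0.22 (standard error 0.23, 95% interval from -0.71 to 0.26, edgeR adjusted p = 0.536), negative in 3 of 3 pairs, and it was not called with the replicate block (-0.19, edgeR adjusted p = 0.258). Neto1 overlaps an antisense gene by 219 exonic bases, so its reads are less certain if the counting did not use the strand.

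Over the 8 genes, Grik3 and Grik5 were higher in all 3 pairs and Grik2, Neto1 and Neto2 were lower in all 3. These 5 of 8 genes compare with 30.2% of all genes tested that were higher and 30.6% that were lower in every pair. With the replicate block, Grik2 and Neto2 were lower and none of the 8 was higher. The blocked fit called 13.2% of all genes lower and 11.8% higher.

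**Figure D2:**
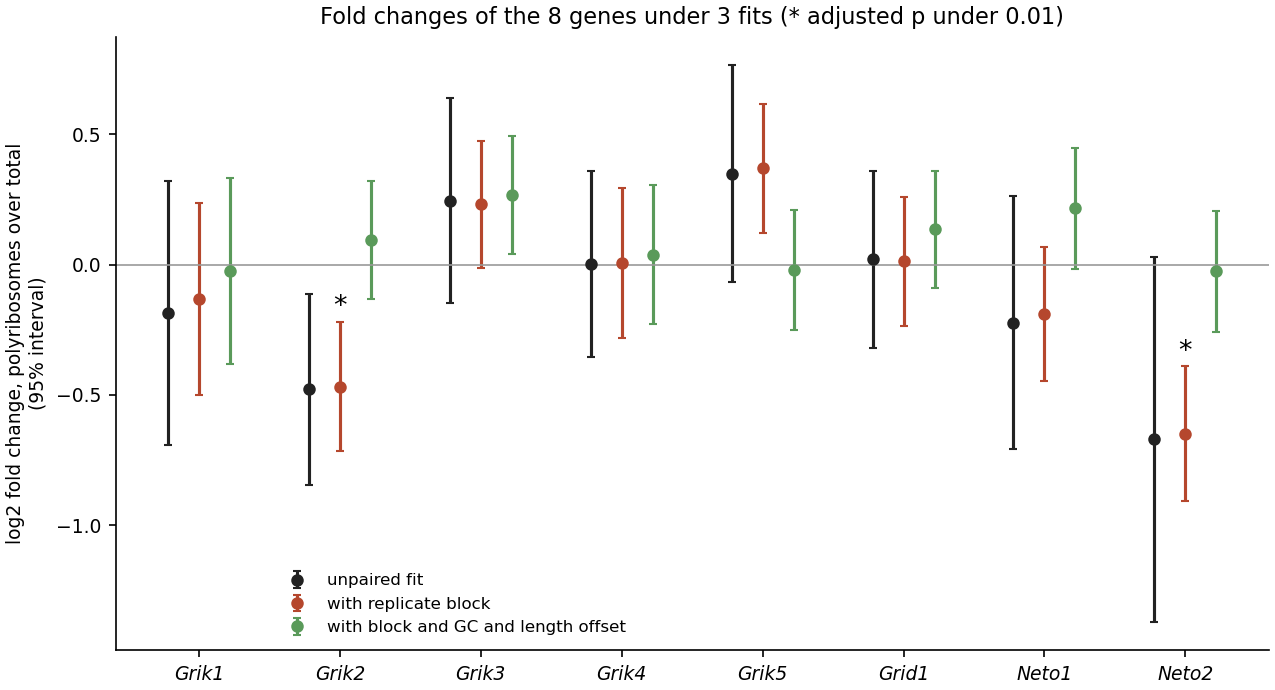
Log2 fold changes of NMDA polyribosomes over unstim. Total for the 8 genes with 95% intervals. They come from the unpaired fit, the fit with the replicate block, and the blocked fit with an offset for GC content and exonic length. Asterisks mark Grik2 and Neto2 in the blocked fit (-0.47 and -0.65), and with the offset these genes stand at 0.10 and -0.025.

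The fold changes of the 8 genes followed their GC content. Neto2, Grik2 and Neto1, all in the lowest GC quintile, had the 3 most negative fold changes, and Grik5, in the highest quintile, had the most positive. Across the 8 genes Pearson's r between GC content and log2 fold change was 0.95, and across 12238 genes with a GC value it was 0.54, each over genes that share the same libraries. In the unpaired fit the median log2 fold change of all genes tested went from -0.37 in the lowest GC quintile to 0.36 in the highest. Relative to the median of their own quintile, Grik5, Grik1, Grik4 and Grid1 were within 0.04 of it, while Neto1 was 0.15 and Grik3 0.08 above. Grik2 lay at -0.11 and Neto2 at -0.30 relative to the median of theirs.

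When an offset for GC content and exonic length was added to the blocked fit, none of the 8 was called. Grik2 went to 0.10 (95% interval from -0.13 to 0.32), Neto2 to -0.025 (-0.26 to 0.21), Grik5 to -0.020 (-0.25 to 0.21) and Neto1 to 0.22 (-0.016 to 0.45). Grik3 kept a similar value, 0.27 (0.04 to 0.49, edgeR adjusted p = 0.0708). In that fit 15.9% of all genes tested were called in either direction. The offset without the block, added after the values were seen, called 0.898% of all genes and none of the 8. Because the offset was fitted within each library, it takes out a trend with GC content or length whatever its origin, which was not tested.

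**Figure D3:**
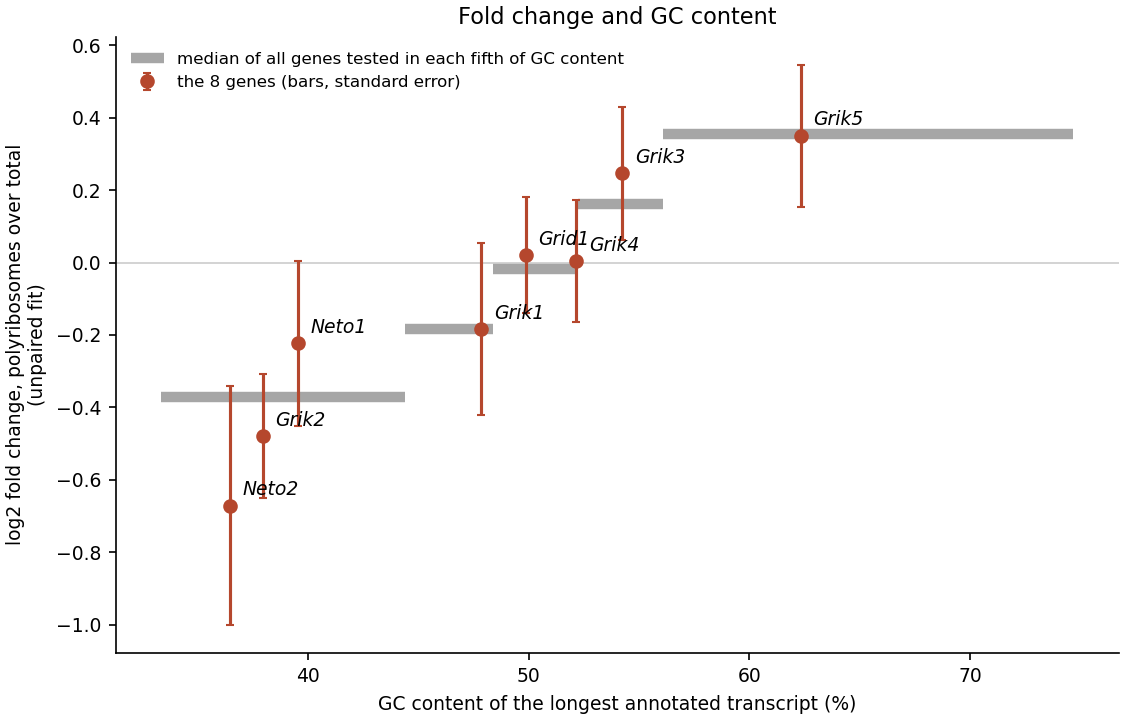
Log2 fold change of the 8 genes in the unpaired fit (points, with standard errors) against the GC content of the longest annotated transcript. Grey bars give the median of all genes tested in each GC quintile, which goes from -0.37 to 0.36, and the 8 points follow these bars from Neto2 at 36.5% GC to Grik5 at 62.3%.

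The 5 kainate subunits were also compared within each library, where scaling between libraries plays no part. In counts per kb, Grik5 made up 69.7% ± 3.12 of the summed kainate subunit level in NMDA polyribosomes and 63.2% ± 5.72 in unstim. Total (SD, n = 3). Grik3 followed with 15.4% ± 2.09 and 15.1% ± 0.53, and Grik2 with 8.29% ± 1.69 and 13.5% ± 3.64. Grik4 and Grik1 made up the rest, at 3.92% and 2.77% on polyribosomes and at 4.59% and 3.57% in total RNA. These shares rest on 3960 to 5284 counts of the 5 genes per polyribosome library and on 795 to 2340 per total RNA library.

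**Figure D4:**
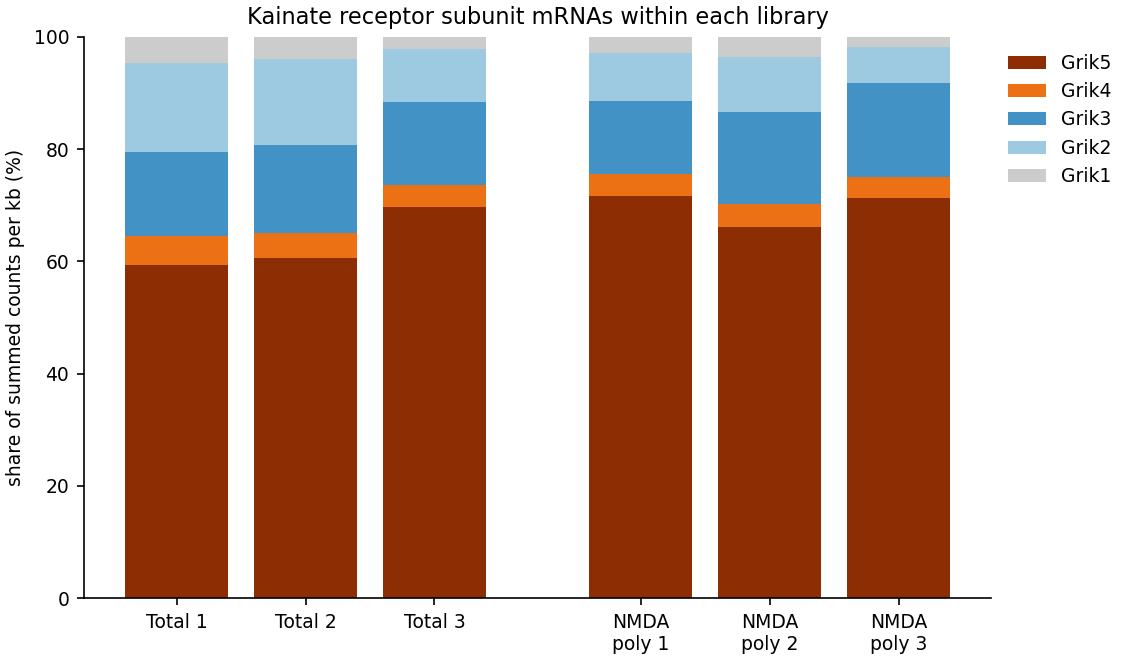
Shares of the 5 kainate subunit genes in their summed counts per kb, as stacked bars for each library. Grik5 takes 59.3% to 71.5% in every library, and the Grik2 share is smaller on polyribosomes than in total RNA of the same replicate.

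The high-affinity subunits Grik4 and Grik5 were set against Grik1, Grik2 and Grik3 as a log2 ratio of counts per kb. This ratio was 1.63, 1.24 and 1.58 on polyribosomes and 0.87, 0.89 and 1.48 in total RNA. It was higher on polyribosomes in 3 of 3 pairs, by 0.76, 0.34 and 0.10 and by 0.40 on average. An exact two-sided permutation test gave p = 0.2, in a design of 3 libraries against 3 whose smallest possible p is 0.1, so it could not have passed 0.05. Of the high-affinity subunits only Grik5 had a larger mean share on polyribosomes (69.7% against 63.2%), while that of Grik4 was smaller (3.92% against 4.59%). Grik5 and Grik2 have the highest and lowest GC content of the 5 subunits (62.3% and 37.9%), and the ratio was taken without an offset. The log2 ratio of Neto2 to Neto1 was -0.70, -0.52 and -1.33 on polyribosomes and -0.32, -0.08 and -0.62 in total RNA. It was lower on polyribosomes in 3 of 3 pairs, by -0.50 on average (p = 0.2 in the same exact test).

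Several of the 8 genes differed more between replicates than between groups. In replicate 3, Neto2 was lower than the mean of replicates 1 and 2 by a log2 difference of -1.53 on polyribosomes and -1.04 in total RNA. For Neto1 these differences were -0.82 and -0.62, for Grik1 -0.64 and -0.53, and for Grik2 -0.33 and -0.36. Grik3 and Grik5 stood on the other side, at 0.38 and 0.33 for Grik3 and at 0.23 and 0.60 for Grik5. Grik4 and Grid1 differed by at most 0.07. For 7 of the 8 genes the direction was the same in both groups, and the exception was Grik4, at 0.00 and 0.07. No test was made of this difference, which was noticed in the data. The medians of all genes tested moved with GC content here too, from -0.29 in the lowest to 0.22 in the highest quintile on polyribosomes and from -0.22 to 0.28 in total RNA. Replicate 3 was also the shallowest library of each group, and summed marker levels moved there in both directions. The sum of 6 inhibitory neuron markers was highest in replicate 3, at 998 CPM against 529 and 744 on polyribosomes and at 664 against 424 and 525 in total RNA. The largest part of it was Sst, at 546 CPM against 228 and 330 on polyribosomes, while Gad2 in total RNA was lowest in replicate 3. The excitatory neuron sum was also highest in replicate 3 of both groups (6973 and 6332 CPM), and the oligodendrocyte sum was lowest there (9628 and 6868 CPM). The part of these in the differences was not tested.

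**Figure D5:**
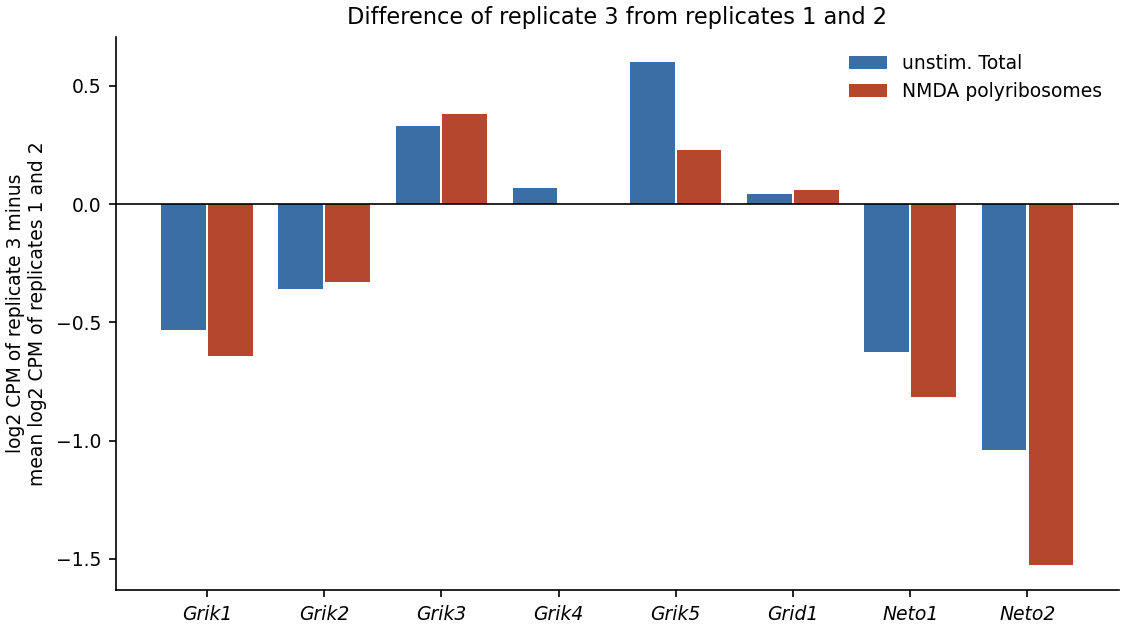
Log2 CPM of replicate 3 minus the mean log2 CPM of replicates 1 and 2, for each gene in unstim. Total (blue) and NMDA polyribosomes (red). Neto2, Neto1, Grik1 and Grik2 are lower and Grik3 and Grik5 higher in replicate 3 of both groups, while Grik4 and Grid1 stay within 0.07 of 0.

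The profile of Grik5, which had the highest mean count of the 8, was compared over the 6 libraries with those of the 6336 other genes whose mean normalized count reached 100. The most similar were Ppfia4, Aifm3 and Fbf1, with root mean square differences of 0.03, 0.04 and 0.05 on the centred log2 CPM scale. Their log2 fold changes were 0.36, 0.42 and 0.33, none past the threshold (edgeR adjusted p of 0.205, 0.135 and 0.286), and their GC contents were 57.8%, 58.2% and 57.7%.

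The other ionotropic glutamate receptors, which mediate fast excitatory transmission beside the kainate receptors, gave a background from the same gene family. Of 11 NMDA and AMPA receptor genes 10 were tested, 1 was called higher and none lower, with a median log2 fold change of -0.06. In the blocked fit with the GC and length offset this median was 0.23, against 0.07 for the 8 genes and 0.006 for all genes tested. Grin2c, an NMDA receptor subunit, held 204 ± 29.0 CPM on polyribosomes (SD, n = 3) against 117 ± 10.5 in total RNA, which gave a log2 fold change of 0.81 (standard error 0.17, edgeR adjusted p = 0.00965). It missed the threshold in all 6 fits with a library left out (edgeR adjusted p from 0.0109 to 0.0659). Grin2c passed with the replicate block (0.79, edgeR adjusted p = 1.7e-07), and also with the GC and length offset added to the block (0.46, edgeR adjusted p = 9.9e-04). Grin2b and Grin1, with the highest mean counts of this list, had log2 fold changes of -0.32 and 0.52 and were not called in the unpaired fit. Grin1 passed with the replicate block (0.50, edgeR adjusted p = 9.7e-04) but not with the offset added (0.24, edgeR adjusted p = 0.151), and Grin2b passed in neither (-0.31 and 0.17).

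A list of 24 partners held cerebellins and C1q-like ligands, neurexins, scaffolds, the RNA editing enzymes Adar and Adarb1, and trafficking and modifying proteins. All 24 were tested and none was called, while 4 were higher and 2 lower at an unadjusted p under 0.05 (beside 15.4% and 17.1% of all genes), and the median log2 fold change was 0.05 (-0.06 with scaling by total counts only). DESeq2 called 2 of them higher, C1ql2 and Nrxn2. Dlg4, which encodes the scaffold Psd95 and was among the partners with the highest mean counts, had a log2 fold change of 0.41 (edgeR adjusted p = 0.124). Dlg4 passed with the replicate block (0.42, edgeR adjusted p = 0.0055) and with the GC and length offset added to it (0.76, edgeR adjusted p = 5.7e-08). Adarb1, the enzyme that edits Grik1 and Grik2 transcripts, had a log2 fold change of 0.00 and was named after its values were seen. C1ql2, a ligand of kainate receptors at mossy fibre synapses, held 21.5 ± 1.66 CPM on polyribosomes against 9.52 ± 4.24 in total RNA and was likewise named after its values were seen. Its log2 fold change was 1.11 (standard error 0.25, edgeR adjusted p = 0.0129), it passed with the replicate block (1.09, edgeR adjusted p = 4.2e-06) but not with the offset added to the block (0.52, edgeR adjusted p = 0.0356), and its transcript has a GC content of 63.4%. With the replicate block 4 of the 24 partners were higher and 2 lower, beside 11.8% and 13.2% of all genes.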

How the data were processed

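Ribosomal RNA-depleted, paired-end libraries were sequenced from polyribosomal RNA of NMDA-stimulated synaptoneurosomes and from total RNA of unstimulated ones, with 3 libraries in each of 2 groups. The authors aligned reads to GRCm38 and deposited raw read counts per protein-coding gene on the Gencode vM6 basic annotation. The submitters' processing notes name CASAVA 1.8.2, STAR 2.5.2b, HTSeq, BEDTools, SAMtools and DESeq2. Strand use in the counting is not given in the sources used here. The table also held columns of the authors' own DESeq2 comparison (base mean, log2 fold change, standard error, statistic, p and adjusted p), and these were not used.

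The counts were fitted in R 4.3.3 with edgeR 4.0.16 (filterByExpr, TMM, quasi-likelihood test, group only), with Benjamini-Hochberg adjustment over all 12255 genes tested and a threshold of 0.01. Positive fold changes are higher on polyribosomes, relative to the other genes. Alternatives were DESeq2 1.42.0, total count and RLE scaling, no expression filter, a replicate block, a GC and length offset (splines with 5 degrees of freedom), and each library left out. Exonic length and GC content came from Gencode vM21, which uses the same build, with exons clipped to the deposited gene spans and GC taken from the longest basic transcript, and 99.9% of the tested genes had a value. Coding sequences were aligned with MAFFT 7.526. Shares and ratios were computed per library from counts per kb, and the ratios were tested by exact permutation.

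The libraries of a preparation were aliquots that share a label prefix, so the replicate numbers pair them. Same-numbered libraries deviated together from their group means (r of 0.37, 0.26 and 0.38), while those with different numbers gave -0.35 to 0.11. Deviations from a group mean cancel over its libraries, so the lower values for different numbers follow from the higher ones and are no separate evidence. Replicates differed by more than sampling noise, with chi-square values of 3.58 to 20.9 per degree of freedom.

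The 8 genes and the gene lists were chosen with earlier results of these data known. Named beside the 8 were genes of the other lists that passed the threshold, the 2 with the highest mean count in each list (1 of these is not reported here), and the 3 genes with the profile most like that of Grik5, which had the highest mean count. In data simulated from the real means and library sizes for this comparison, with 200 changed genes, the unpaired fit recovered 56% of 2-fold changes among 12139 genes and 97% of 4-fold changes among 12133 genes. The blocked fit recovered 44.5% and 96.5%. Unlike the real libraries, the simulated ones had no shared replicate effect and no trend with GC content. The fold changes of the 8 genes in the unpaired fit were smaller than those simulated (log2 from -0.67 to 0.35).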

Additional observations from a re-analysis of the deposited data

How the results depend on the processing

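No gene of the 8 was called with any of the 6 libraries left out, nor with DESeq2, total count scaling, RLE scaling, no expression filter or the offset for GC content and length. The replicate block called 2 of the 8 lower, Grik2 (-0.47) and Neto2 (-0.65), and libraries 1 and 2 of each group alone, chosen after seeing the data, called 1, Neto2 (-0.56). No other call among the 8 changed with the block. With the offset in the blocked fit, fold changes turned to 0.10 for Grik2, -0.020 for Grik5 and 0.22 for Neto1, and with the offset but no block, also chosen after seeing the data, to 0.11, -0.022 and 0.18. Total count scaling, which moved the median of all genes to -0.11, turned Grik4 to -0.11 and Grid1 to -0.087. With each library left out, Grik4 ran from -0.040 to 0.022 and Grid1 from -0.042 to 0.10. Grik1 ran from -0.37 to -0.021, Grik2 from -0.57 to -0.38, Grik3 from 0.12 to 0.37, Grik5 from 0.21 to 0.57, Neto1 from -0.38 to -0.012 and Neto2 from -0.91 to -0.34.

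Of all genes, 87 were called higher in the unpaired fit, against 316 with DESeq2, 42 with total counts, 476 without the expression filter, 1441 with the block, 1069 with block and offset, 21 with the offset alone, 453 in libraries 1 and 2, and 0 to 61 with each library left out. The 289 called lower became 566 without the filter, 1622 with the block, 884 with block and offset, 89 with the offset alone, 658 in libraries 1 and 2, and 22 to 208 with each library left out. Of the other ionotropic receptors 1 was called higher, against 0 with total counts or the offset alone, 3 with the block, 2 with block and offset, and 0 with each library left out. Of the partners 0 were called higher, against 2 with DESeq2, 2 without the filter, 4 with the block, 3 with block and offset and 3 in libraries 1 and 2, and the block called 2 lower. The cause of these changes was not tested. The ratio of Grik4 and Grik5 to the other kainate subunits differed by 0.29 to 0.60 and the ratio of Neto2 to Neto1 by -0.67 to -0.27 with each library left out. As a paired test over the replicate block, an exact sign-flip test gave p = 0.25 for each ratio (0.40 and -0.50), the smallest value 3 pairs allow. The shallowest library held 12 counts of Grik1, 39 of Grik4, 54 of Neto1 and 56 of Neto2, the fewest of the 8 genes.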
